A study of Mus musculus with 3 samples.

Results

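The miRNA profile of proliferating W4-08 cells was compared with that of differentiating C2C12 cells, which takes 2 of the 3 arrays of the series, chosen by their labels. C2C12 is a mouse myoblast cell line that forms myotubes when serum is lowered. W4-08, written W408 in the labels, is a subline obtained from C2C12 by transfection with a V5-tagged Wnt4 cDNA under a CMV promoter and selection with blasticidin over serial passages. Whether it is 1 clone is not given in the sources used here. The paper describes this subline as one that forms myotubes without serum withdrawal, and the comparison sets the Wnt4 route beside the serum route. W4-08-PR cells grew in proliferation medium, DMEM with 10% FBS, and C2C12-DF cells in differentiation medium, DMEM with 2% horse serum. C2C12-PR cells, the parental line in proliferation medium, share the line of one array and the medium of the other and were used to place both. Each condition was 1 culture on 1 single-colour array of Cy5-labelled total RNA, so no test between conditions was possible. How long the cells were kept in differentiation medium is not given either. Cell line and medium differ together between W4-08-PR and C2C12-DF and cannot be told apart from these arrays alone. The arrays carry miRNA probes, so neither the Wnt4 transgene nor mRNA markers of myotubes could be read from them.

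miRNAs are short RNAs that pair with mRNAs, mostly through the seed near their 5′ end, and lower the output of those mRNAs. A small set named myomiRs, which includes miR-1, miR-133a, miR-133b and miR-206, is enriched in muscle and is switched on by myogenic transcription factors as myoblasts leave the cell cycle and fuse. Other miRNAs are tied to growth, such as those of the miR-17 cluster, which the factor Myc activates, and miR-221 with miR-222, which target the cell cycle inhibitor Cdkn1b.

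The mature sequences of the miRNAs on which the comparison turned were taken from RefSeq (GRCm38.p6) and are printed 5′ to 3′ with the seed, bases 2 to 8, in capitals. Of the 1265 mouse miRNA probes, 1024 matched an entry by name. The first pair, called higher in W4-08-PR, comes from chromosome 1, where miR-206-3p (chr1:20679055-20679076, plus strand) and miR-133b-3p (chr1:20682834-20682855, plus strand) lie within the long noncoding RNA gene Lincmd1.
miR-206-3p: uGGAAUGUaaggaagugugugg
miR-133b-3p: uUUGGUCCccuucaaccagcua
The next set shares the seed AAAGUGC and lay above 0 as a whole. It comes from 3 clusters, on chromosomes 14 (miR-17-5p, chr14:115043684-115043706, and miR-20a-5p, chr14:115044183-115044205, both plus strand), X (miR-20b-5p, chrX:52742159-52742181, and miR-106a-5p, chrX:52742541-52742563, both minus strand) and 5 (miR-106b-5p, chr5:138165787-138165807, and miR-93-5p, chr5:138165574-138165596, both minus strand and within Mcm7).
miR-17-5p: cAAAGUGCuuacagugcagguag
miR-20a-5p: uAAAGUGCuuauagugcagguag
miR-20b-5p: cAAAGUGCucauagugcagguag
miR-106a-5p: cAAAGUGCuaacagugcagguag
miR-106b-5p: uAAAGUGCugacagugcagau
miR-93-5p: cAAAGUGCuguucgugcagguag
miR-19b-3p, called higher, has another seed and is encoded in 2 of the same clusters (chr14:115044358-115044380, plus strand, and chrX:52741991-52742013, minus strand).
miR-19b-3p: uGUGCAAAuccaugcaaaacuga
The miRNAs called lower include the pair with the seed GCUACAU, encoded side by side on chromosome X (miR-221-3p, chrX:19146307-19146329, and miR-222-3p, chrX:19146901-19146923, both minus strand).
miR-221-3p: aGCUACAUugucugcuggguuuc
miR-222-3p: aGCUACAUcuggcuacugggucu
They also include miR-125b-5p, with 2 gene copies (chr9:41581940-41581961, within Mir100hg, and chr16:77646279-77646300, both plus strand), shown beside miR-125a-5p of the same seed CCCUGAG (chr17:17830817-17830840, plus strand, within Spaca6).
miR-125b-5p: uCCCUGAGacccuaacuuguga
miR-125a-5p: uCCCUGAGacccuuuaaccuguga
The last 3 called lower are rich in G and C and share no seed. They are miR-3090-5p (chr2:133564722-133564742, plus strand), miR-762 (chr7:127708534-127708555, plus strand, at Bcl7c) and miR-3102-5p (chr7:100882388-100882409, minus strand, at Arhgef17).
miR-3090-5p: gUCUGGGUggggccugagauc
miR-762: gGGGCUGGggccgggacagagc
miR-3102-5p: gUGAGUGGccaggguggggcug
miR-133a-3p, miR-5097 and miR-487b-3p are named only.

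Brightness is given in units above background, meaning the intensity of a spot after taking away a trimmed mean over the blank spots of its array. That background was 99.9 units on W4-08-PR, 100.7 on C2C12-DF and 95.9 on C2C12-PR. The authors' limit of detection lay above that background by about 2 times the SD of the trimmed blank spots. It passed 477 of 1265 probes on W4-08-PR, 370 on C2C12-DF and 339 on C2C12-PR, with 6.85%, 6.01% and 7.15% of the blank spots on the same arrays. At 50 units or more the arrays were closer, with 184 probes on W4-08-PR, 162 on C2C12-DF and 162 on C2C12-PR. Ratios are log2 differences, W4-08-PR over C2C12-DF, after background correction with an offset of 50 units and quantile normalization of the 3 arrays. Differences of 2-fold or more, a log2 ratio of 1 or -1, were called higher or lower, and the ± beside a ratio is 1 technical SD from the blank and spike control spots, which holds no variation between cultures. Because of the offset, dim probes have ratios nearer 0.

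With the offset of 50 units, most miRNAs read alike in W4-08-PR and C2C12-DF. The median detected probe read 27.3 units on W4-08-PR and 38.6 on C2C12-DF, below that offset. Of the 323 probes detected on both arrays, 272 (84.2%) had log2 ratios within 0.5 of 0, with a median of -0.03 and quartiles of -0.21 and 0.15, beside a median technical SD of 0.149. Among the 524 probes detected on at least 1 of the arrays, 5 were called higher (0.954%) and 6 lower (1.15%) in W4-08-PR. The 5 were miR-206-3p, miR-133b-3p, miR-133a-3p, miR-5097 and miR-19b-3p, and the 6 were miR-125b-5p, miR-221-3p, miR-222-3p, miR-3090-5p, miR-762 and miR-3102-5p. The counts moved with the processing, and plain subtraction scaled to the spike controls, without an offset, gave 53 higher and 16 lower. Just inside the limit lay miR-19b-3p (1.06) and miR-3102-5p (-1.03), and just outside it miR-17-5p (0.99) and miR-125a-5p (-0.98). Under the 10 ways of processing the spots that were tried, miR-19b-3p ranged from 0.95 to 2.99 and miR-17-5p from 0.95 to 2.10. The ranges were -1.22 to -0.28 for miR-3102-5p and -1.10 to -0.17 for miR-125a-5p. In the plot of one array against the other the 3 myomiRs stand apart from the diagonal band, while the remaining calls lie close to its edges.

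**Figure D1:**
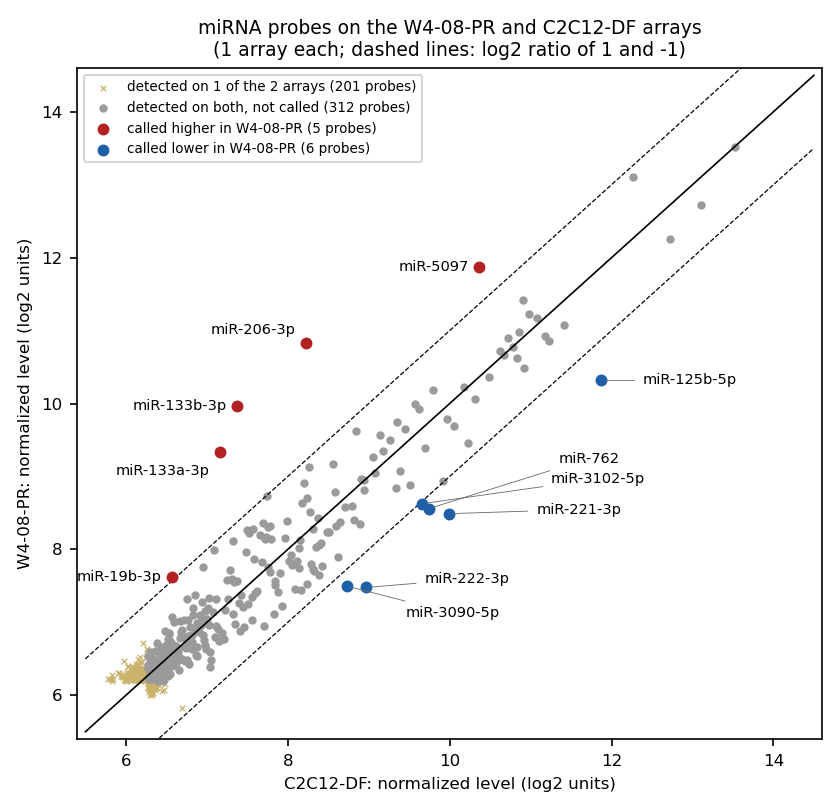
Normalized level (log2 units) of each miRNA probe on the W4-08-PR array (vertical) and the C2C12-DF array (horizontal), 1 array each, with the solid line at equal levels and dashed lines at log2 ratios of 1 and -1. The 5 probes called higher (red) lie above the band and the 6 called lower (blue) below it, and the 312 grey probes detected on both arrays were not called.

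The muscle-enriched miRNAs gave the 3 highest log2 ratios of the 323. miR-206-3p, which promotes myoblast differentiation, read 1917 units on W4-08-PR, against 219 on C2C12-DF and 54.4 on C2C12-PR. Its log2 ratio was 2.61 ± 0.15, or 6.11-fold. miR-133b-3p, its neighbour in Lincmd1, read 1009 units on W4-08-PR, against 100.2 on C2C12-DF and 37.3 on C2C12-PR, with a log2 ratio of 2.60 ± 0.14 (6.06-fold). Each of these miRNAs was brightest on W4-08-PR and dimmest on C2C12-PR. miR-133a-3p, which is encoded beside miR-1 and acts on Srf and other muscle regulators, read 693 units on W4-08-PR, against 75.8 on C2C12-DF and 27.2 on C2C12-PR. Its log2 ratio was 2.17 ± 0.14 (4.501-fold). The ratio of the units above background, on which no offset acts, was 8.77 for miR-206-3p, 10.1 for miR-133b-3p and 9.14 for miR-133a-3p. miR-133a-3p and miR-133b-3p are nearly alike, and whether each probe reads its own miRNA alone was not tested. In these bulk RNAs a larger share of cells that hold a miRNA and more of it per cell cannot be told apart.

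No further miRNA of the muscle list was called. Of its 19 probes, 5 were detected on both arrays, 3 on W4-08-PR alone and 11 on neither, with 3 called higher and none lower. The number called higher was 5 with spike control scaling and 6 in the authors' processed values. The median log2 ratio of the 5 was 2.17, against -0.03 over all 323, and 3 of these 5 miRNAs were ones that the paper picked from the same arrays. miR-1a-3p, the myomiR that targets the histone deacetylase Hdac4, was detected on W4-08-PR alone, at 31.3 units, and read 10.3 on C2C12-DF and 2.76 on C2C12-PR, both below detection. Its log2 ratio has only a lower bound, 0.27 here. That bound passed the limit with spike control scaling (1.48) and in the authors' processed values (2.04). The opposite arm of miR-206 and those of miR-133a and miR-133b were detected on neither array, as were both arms of miR-499. miR-208a-3p and miR-208a-5p, encoded within a myosin heavy chain gene, were detected on W4-08-PR alone, at 11.6 and 20.7 units. miR-486, another miRNA of muscle and of red cells, gave opposite signs for its arms. miR-486-3p read 21.6 units on W4-08-PR, against 59.8 on C2C12-DF and 18.9 on C2C12-PR. Its log2 ratio of -0.64 ± 0.15 was not called, but with spike control scaling it was -1.52 and was called lower. In the authors' processed values it was -0.97 and was not called. The joint probe for miR-486-5p and miR-3107-5p read 35.2 units on W4-08-PR, against 11.6 on C2C12-DF and 14.7 on C2C12-PR, with a log2 ratio of 0.30 ± 0.16. That joint probe was called higher with spike control scaling.

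**Figure D2:**
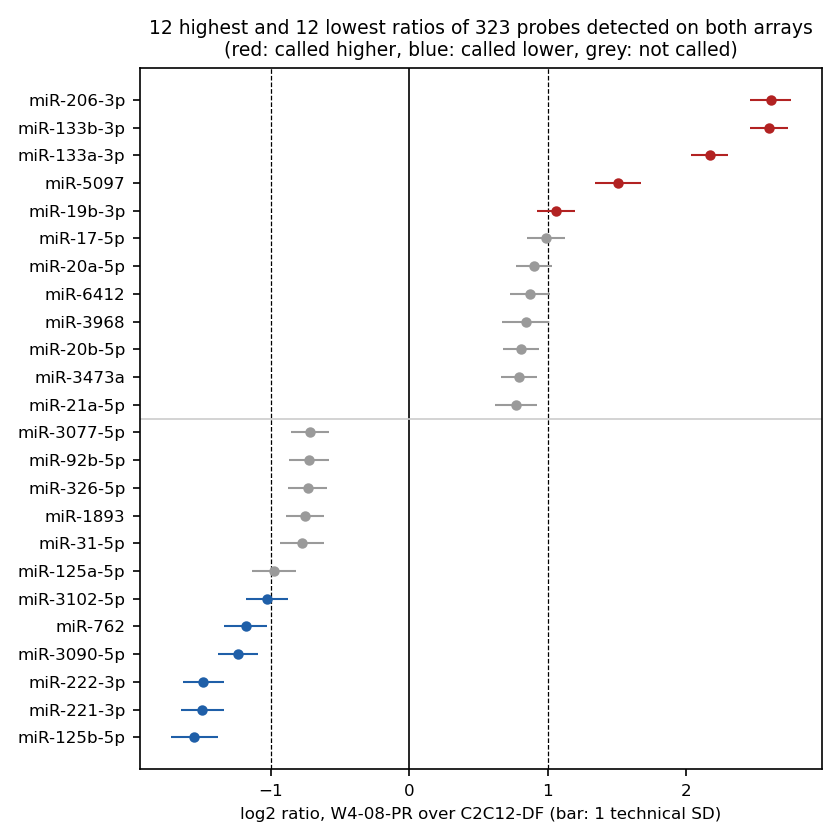
log2 ratio of W4-08-PR over C2C12-DF for the 12 highest and 12 lowest of the 323 probes detected on both arrays, each from 1 array per condition, with bars of 1 technical SD and dashed lines at 1 and -1. miR-206-3p, miR-133b-3p and miR-133a-3p lie between 2.17 and 2.61, and miR-125b-5p, miR-221-3p and miR-222-3p between -1.55 and -1.49.

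The detected miRNAs of the miR-17 clusters lay mostly above 0, with 1 call. miR-19b-3p read 162 units on W4-08-PR, against 28.8 on C2C12-DF and 149.5 on C2C12-PR, with a log2 ratio of 1.06 ± 0.14 (2.08-fold). This miRNA was dim on C2C12-DF alone. miR-17-5p read 434 units on W4-08-PR, against 143 on C2C12-DF and 348 on C2C12-PR, with a log2 ratio of 0.99 ± 0.14. miR-20a-5p read 237 units on W4-08-PR, against 64.6 on C2C12-DF and 225 on C2C12-PR (0.90 ± 0.13). The X chromosome copy was likewise dimmest on C2C12-DF. There, miR-20b-5p read 181 units on W4-08-PR, against 54.8 on C2C12-DF and 189 on C2C12-PR (0.81 ± 0.13), and miR-106a-5p read 297 units, against 111 and 239 (0.77 ± 0.13). On chromosome 5, miR-106b-5p read 111 units on W4-08-PR, against 39.5 on C2C12-DF and 61.9 on C2C12-PR (0.57 ± 0.13), and miR-93-5p read 273 units, against 141 and 219 (0.44 ± 0.13). All 6 probes with the seed AAAGUGC were thus dimmest on C2C12-DF, with a median log2 ratio of 0.79. Their median was -0.15 for W4-08-PR over C2C12-PR and -1.003 for C2C12-DF over C2C12-PR.

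These 6 probes read miRNAs that are close in sequence. Against miR-17-5p, the mature miR-106a-5p differs at 1 of 23 positions, miR-20a-5p and miR-20b-5p at 2 each, miR-106b-5p at 3 of 21 and miR-93-5p at 4 of 23, and cross-binding was not tested. Besides miR-19b-3p, probes with further seeds were detected. miR-92a-3p read 77.8 units on W4-08-PR and 53.9 on C2C12-DF (0.11 ± 0.13), miR-25-3p 200.1 and 134.7 (0.15 ± 0.13), and miR-18a-5p 19.5 and 16.3 (-0.03 ± 0.17). Over the whole miR-17 group, 14 of 28 probes were detected on both arrays, 11 of these lay above 0, and the median of 0.35 stayed between 0.25 and 1.62 under the 10 ways of processing the spots that were tried. The number of its probes called higher moved with them, between 0 when scaled to the 75th percentile and 12 in the authors' processed values, with 5 under no between-array normalization and 7 under spike control scaling. Among all 524 probes detected on at least 1 array, 5, 157, 13 and 53 were called higher, in the same order. By position, the cluster on chromosome X had 5 of 5 detected probes above 0 (median 0.77), the one on chromosome 5 had 3 of 3 (0.44) and the one on chromosome 14 had 5 of 7 (0.25). Of these, miR-19b-3p and miR-92a-3p have a copy in the clusters on chromosomes 14 and X and count in both.

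miR-5097 was the remaining miRNA called higher. It read 3749 units on W4-08-PR, against 1228 on C2C12-DF and 7374 on C2C12-PR, with a log2 ratio of 1.51 ± 0.17 (2.84-fold), and so lay between the C2C12 arrays on W4-08-PR. miR-21a-5p, a growth-linked miRNA, read 794 units on W4-08-PR, against 374 on C2C12-DF and 826 on C2C12-PR, with a log2 ratio of 0.77 ± 0.15. It was not called. A group related in sequence, miR-3473a (0.79), miR-3473e (0.71) and miR-3473b (0.68), also fell short of the limit. miR-3473a read 259.5 units on W4-08-PR, against 93.1 on C2C12-DF and 131 on C2C12-PR, so that W4-08-PR was the bright array here.

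**Figure D3:**
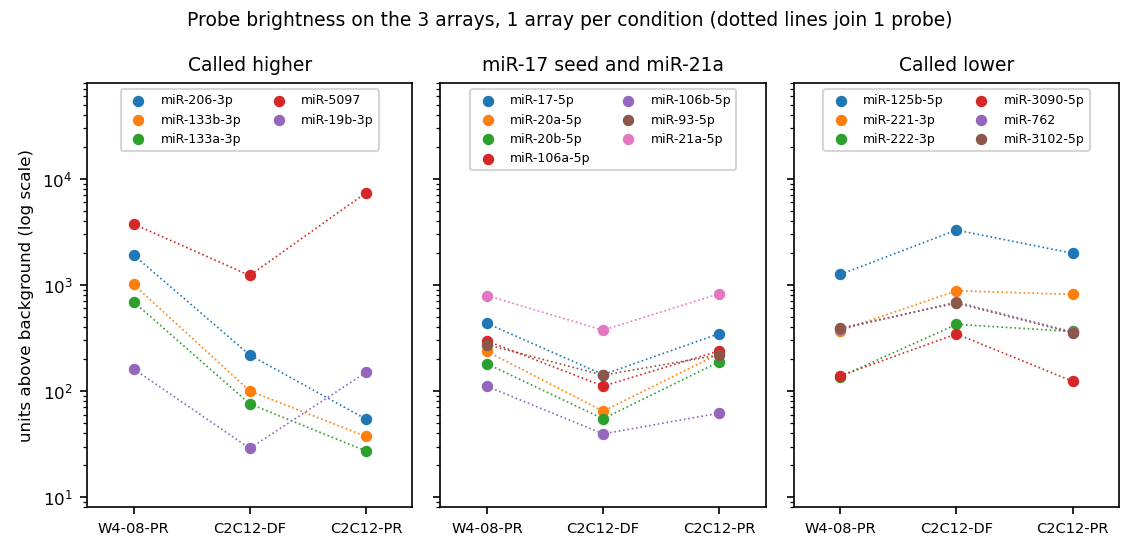
Units above background (log scale) of selected probes on the W4-08-PR, C2C12-DF and C2C12-PR arrays, 1 array each, with dotted lines joining the values of 1 probe. The myomiRs are highest on W4-08-PR and lowest on C2C12-PR, the 6 probes of the miR-17 seed are lowest on C2C12-DF, and miR-221-3p and miR-222-3p are lowest on W4-08-PR.

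miR-221-3p and miR-222-3p were both called lower in W4-08-PR. miR-221-3p read 371 units on W4-08-PR, against 881 on C2C12-DF and 814 on C2C12-PR, with a log2 ratio of -1.497 ± 0.16, a level 2.82-fold lower. miR-222-3p read 137 units on W4-08-PR, against 425 on C2C12-DF and 364 on C2C12-PR, with a log2 ratio of -1.49 ± 0.15, or 2.81-fold lower. The C2C12 arrays lay close to each other for both miRNAs, and W4-08-PR lay below them. Relative to C2C12-PR the log2 ratio of miR-222-3p was -1.49 for W4-08-PR against 0.00 for C2C12-DF, and that of miR-221-3p was -1.25 for W4-08-PR against 0.24 for C2C12-DF. Compared base by base without gaps, 12 of 23 positions differ between the miRNAs, and allowing gaps would lower that count. Cross-binding between the probes was not tested. The opposite arms were detected on neither array, so 2 of the 4 probes of this pair carried the values.

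miR-125b-5p, which targets Igf2 in myoblasts, had the lowest log2 ratio of the 323. It read 1256 units on W4-08-PR, against 3289 on C2C12-DF and 1989 on C2C12-PR, with a log2 ratio of -1.55 ± 0.17 (2.94-fold lower). C2C12-PR lay between the others, with log2 ratios over it of -0.86 for W4-08-PR and 0.70 for C2C12-DF. miR-125a-5p read 516 units on W4-08-PR, against 818 on C2C12-DF and 527 on C2C12-PR, with a log2 ratio of -0.98 ± 0.16. C2C12-PR again lay between the others after normalization, with log2 ratios over it of -0.40 for W4-08-PR and 0.58 for C2C12-DF. Compared base by base from the 5′ end without gaps, miR-125b-5p and miR-125a-5p differ at 7 of the 22 positions compared. That count overstates the difference, because miR-125a-5p holds extra bases that shift those after them. Cross-binding between these probes was not tested. The other detected miRNAs of that seed were near 0, with -0.04 ± 0.14 for miR-351-5p and 0.05 ± 0.16 for miR-6394.

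The opposite arm of miR-125a moved the other way. miR-125a-3p read 335 units on W4-08-PR, against 173 on C2C12-DF and 471 on C2C12-PR, with a log2 ratio of 0.39 ± 0.14. Of 38 hairpins with both arms detected on both arrays, miR-125a was the 1 whose arms differed by a log2 of 1 or more. The arms shared a sign in 22 of the 38, the Pearson correlation of their ratios across hairpins was 0.03, and the median difference between arms was 0.34. miR-99b-5p and let-7e-5p, encoded beside miR-125a on chromosome 17, had log2 ratios of -0.49 ± 0.15 and -0.31 ± 0.16, which turned to 0.29 and 0.56 at the high end of the 10 ways of processing. Over the list of miR-125, miR-351, miR-99 and miR-100, 10 of 13 probes were detected on both arrays, 1 was called lower, and the median was -0.09, between -0.36 and 0.57 over the 10 ways of processing.

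miR-3090-5p, miR-762 and miR-3102-5p were called lower and were brightest on C2C12-DF. miR-3090-5p read 139 units on W4-08-PR, against 345 on C2C12-DF and 124 on C2C12-PR, with a log2 ratio of -1.24 ± 0.14 (2.36-fold lower). miR-762 read 382 units on W4-08-PR, against 691 on C2C12-DF and 361 on C2C12-PR (-1.18 ± 0.15, 2.27-fold lower). For miR-3102-5p the values were 392 units on W4-08-PR, 675 on C2C12-DF and 354 on C2C12-PR (-1.03 ± 0.15, 2.04-fold lower). In the same order, the log2 ratios of W4-08-PR over C2C12-PR, both grown in proliferation medium, were -0.22, -0.38 and -0.26, and those of C2C12-DF over C2C12-PR were 1.01, 0.80 and 0.77. Of the mature sequences, G and C make up 66.7% in miR-3090-5p, 81.8% in miR-762 and 72.7% in miR-3102-5p.

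GC content moved with the ratio across probes. Over the 264 detected probes with a RefSeq sequence, the Pearson correlation of log2 ratio with GC content was -0.31 and the Spearman correlation -0.35, on probes that share the same arrays and labelling. The 29 probes above 70% GC had a median of -0.32, with 5 of 29 above 0, against medians of 0.05 for the 23 probes at 40% or less and 0.00 for the 83 above 40% and up to 50%. On the scale set by the spike controls the Pearson correlation was -0.32, and the part of labelling or hybridization in these values was not tested. For comparison, miR-125b-5p has a GC content of 50%, miR-222-3p 52.2% and miR-221-3p 47.8%. Several further miRNAs among the 12 lowest, miR-1893 (-0.76), miR-326-5p (-0.73), miR-92b-5p (-0.73) and miR-3077-5p (-0.72), were not called. miR-31-5p, which targets Myf5, read 753 units on W4-08-PR, against 1039.8 on C2C12-DF and 955 on C2C12-PR, with a log2 ratio of -0.78 ± 0.16 that was not called and turned to 0.03 in the authors' processed values.

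The other 3 miRNAs that the paper carried forward, miR-6412, miR-3963 and miR-487b-3p, were not called. miR-6412 read 656 units on W4-08-PR, against 227 on C2C12-DF and 2077 on C2C12-PR, with a log2 ratio of 0.87 ± 0.14. That was its lowest value of the 10 ways of processing, and it passed the limit under 6 of the others, from 1.04 to 2.03. miR-3963 read 882 units on W4-08-PR, against 543 on C2C12-DF and 2739.9 on C2C12-PR, with a log2 ratio of 0.39 ± 0.16. Both were brightest on C2C12-PR. miR-487b-3p, from the imprinted Dlk1-Dio3 region, read 11.1 units on W4-08-PR, against 13.0 on C2C12-DF and 59.0 on C2C12-PR, with a log2 ratio of -0.10 ± 0.18. On W4-08-PR and C2C12-DF this miRNA lay just above detection, where the dimmest detected probes read 9.77 and 10.8 units. All 6 miRNAs the paper carried forward were detected on both arrays and 3 were called higher. miR-3968, among the 12 highest ratios, read 8645 units on W4-08-PR, against 3292 on C2C12-DF and 18879 on C2C12-PR, with a log2 ratio of 0.84 ± 0.17. After quantile normalization its level was the same on W4-08-PR and C2C12-PR, with a log2 ratio of 0.00.

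Further miRNA groups of muscle or mesenchymal cells lay above 0 without a call. The 5 detected probes for miR-199 and miR-214 all lay above 0, with a median of 0.48. On chromosome 1, miR-199a and miR-214 are encoded on the transcript opposite Dnm3. miR-199a-5p is also encoded on chromosome 9, and the miRNAs of the joint miR-199a-3p and miR-199b-3p probe on chromosomes 2 and 9. miR-199a-5p read 498 units on W4-08-PR, against 219 on C2C12-DF and 203 on C2C12-PR (0.70 ± 0.14), and the joint probe for miR-199a-3p and miR-199b-3p 663 units, against 287 and 263 (0.62 ± 0.15). Of the 5 miR-378 probes, for miRNAs whose first member is encoded within Ppargc1b, 4 lay above 0 and the median was 0.55. miR-378a-3p read 425 units on W4-08-PR, against 220.01 on C2C12-DF and 143 on C2C12-PR (0.47 ± 0.14). The 3 miR-29 probes, for miRNAs that target collagens, all lay above 0 with a median of 0.39. Relative to C2C12-PR, their median log2 ratio was -0.27 on W4-08-PR and -0.39 on C2C12-DF. For miR-199 with miR-214 and for miR-378, the W4-08-PR medians over C2C12-PR were 0.66 and 0.88. None of these 13 probes was called, and the medians kept their sign under all 10 ways of processing, at 0.48 to 1.62 for miR-199 and miR-214, 0.50 to 1.58 for miR-378 and 0.27 to 1.21 for miR-29. With spike control scaling 3 of the miR-199 and miR-214 probes, 3 of the miR-378 probes and 1 of the miR-29 probes were called higher. The authors' processed values gave 5, 4 and 2 such calls. Of all 524 probes detected on at least 1 array, 10.1% were called higher with spike control scaling and 30.0% in the authors' processed values.

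The smooth muscle pair split. miR-143-3p read 283 units on W4-08-PR, against 116 on C2C12-DF and 111 on C2C12-PR (0.70 ± 0.13). miR-145a-5p, from the same cluster, read 339 units on W4-08-PR, against 367 on C2C12-DF and 122 on C2C12-PR, with a log2 ratio of -0.41 ± 0.15 that turned to 0.39 in the authors' processed values. Of 61 probes for miRNAs that the paper cites in skeletal myogenesis, 29 were detected on both arrays, none was called higher and 2, miR-221-3p and miR-222-3p, were lower, with a median of 0.10. This result moved with the processing, the median lying between -0.08 and 1.06 over the 10 ways. Probes of the list called higher rose to 7 under spike control scaling, beside 4 called lower. For the authors' processed values these counts were 16 and 1. Among all 524 probes detected on at least 1 array, 53 were higher and 16 lower with spike control scaling. In the authors' processed values 157 were higher and 2 lower. The 10 let-7 and miR-98 probes, of a family that marks differentiated cells, had a median of 0.05 and a range of -0.31 to 0.42 with no call. The detected probes of the list of miR-15, miR-16, miR-195, miR-497, miR-322 and miR-503 (7, median 0.22), of miR-34 (5, 0.10), of miR-23, miR-27 and miR-24 (6, 0.05), of miR-30 (6, -0.07), of miR-26 (2, 0.09), of miR-181 (3, -0.13) and of miR-10 (1, 0.15) held no call either. With these last lists and let-7 the sign of the median depended on the scaling for all but miR-26. Of 113 probes for the Dlk1-Dio3 region, 14 were detected on both arrays with no call and a median of -0.11, and of 71 of the Sfmbt2 cluster type, 1 was.

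**Figure D4:**
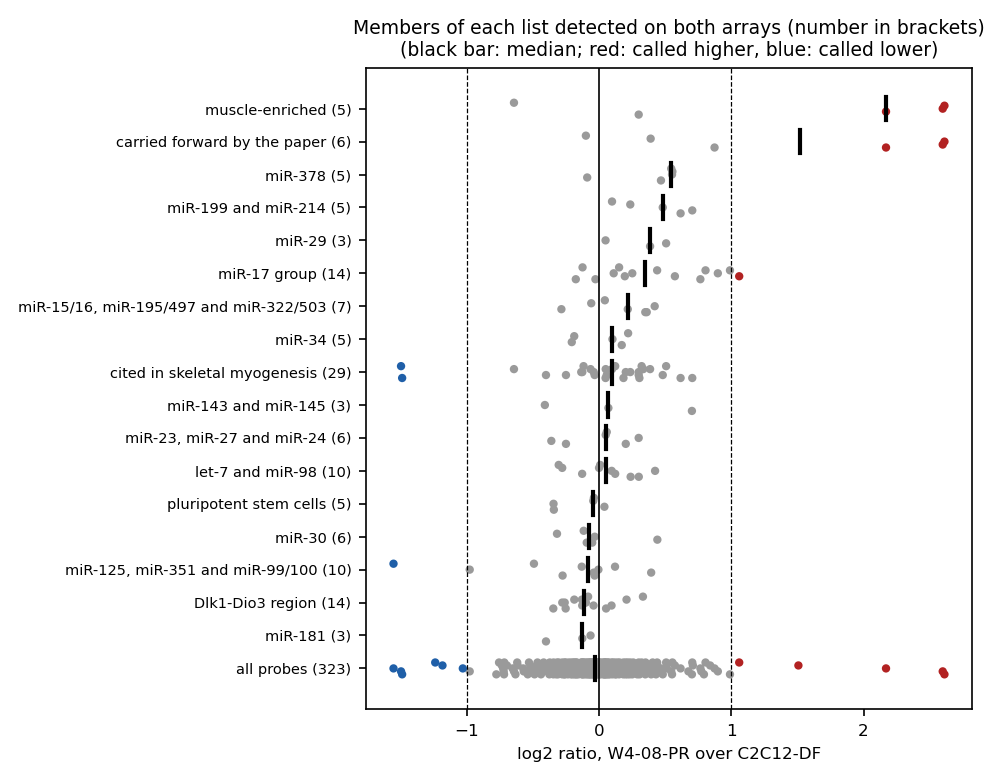
log2 ratio of W4-08-PR over C2C12-DF (horizontal) for the members of each list with at least 3 probes detected on both arrays, with their number in brackets, the black bar at the median and dashed lines at 1 and -1. The muscle-enriched list has its median at 2.17, against -0.03 for all 323 probes, and under other scalings the medians of the lists near 0 change sign.

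Markers of other cell types were measured as follows. Of 14 epithelial probes, which include the miR-200 family, 0 were detected on W4-08-PR and 1, miR-205-5p, on C2C12-DF (15.01 units). Of 4 liver or endothelial probes 1, miR-126-3p (10.8 units), was detected on W4-08-PR and 0 on C2C12-DF. The 9 blood cell probes summed over those detected to 34.1 units on W4-08-PR, against 16.9 on C2C12-DF and 67.1 on C2C12-PR. Of them only miR-142-5p was detected on both arrays, at 9.8 and 16.9 units (-0.20 ± 0.17). miR-150-3p (10.8 units) and miR-223-3p (13.5) were detected on W4-08-PR alone, near its dimmest detected probe (9.77). On C2C12-PR, miR-144-3p gave 48.3 of the units. The 12 neural probes, for miR-9, miR-124, miR-137, miR-138 and miR-219, summed to 49.4 units on W4-08-PR, against 43.8 on C2C12-DF and 66.9 on C2C12-PR. miRNAs of pluripotent stem cells gave 5 of 22 probes detected on both arrays, with a median log2 ratio of -0.04, and summed to 200.1 units on W4-08-PR, against 199.005 on C2C12-DF and 178 on C2C12-PR. Within this list miR-292-3p read 57.0 units on W4-08-PR and 76.9 on C2C12-DF, and miR-290-5p 30.8 and 48.3, above the dimmest detected probes. miR-128, also planned as a neural marker, was not in the neural list. Its probes miR-128-1-5p (-0.13), miR-128-2-5p (0.33) and miR-128-3p (0.12) were detected on both arrays. None of these probes was called.

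Detection on 1 array alone held to dim probes. W4-08-PR had 154 such probes, the brightest being miR-7a-5p at 46.8 units, and C2C12-DF had 47, the brightest being miR-1963 at 36.3 units. All 189 probes that reached 50 units on either array were detected on both. For probes detected on 1 array the ratio is known only as a bound. The furthest bounds were a log2 of 0.45 for miR-7a-5p (at least 1.37-fold higher in W4-08-PR) and -0.49 for miR-1963 (at least 1.41-fold lower). None was called, but with the offset of 50 units probes this dim could hardly reach the limit. Without an offset both passed it, miR-7a-5p at 2.07 with spike control scaling and 2.62 in the authors' processed values. For miR-1963 these bounds were -1.95 and -1.40. miR-7a-5p read 55.8 units on C2C12-PR, while miR-1963 was undetected there. After miR-7a-5p the bounds were 0.36 for miR-30e-5p, 0.35 for miR-193b-3p and 0.32 for miR-193a-5p, and after miR-1963 they were -0.29 for miR-6540-3p, -0.27 for miR-148a-3p, -0.26 for miR-673-5p and -0.25 for miR-1901. Detection limits differ between the arrays, and 25 of the 154 probes were also detected on C2C12-PR.

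All 11 called miRNAs kept their direction under each of the 9 other ways of processing the spots, while their sizes and the number of calls moved. miR-206-3p ranged from 2.49 to 3.63, miR-133b-3p from 2.38 to 3.83, miR-133a-3p from 2.11 to 3.69, miR-5097 from 1.18 to 2.11 and miR-222-3p from -2.07 to -1.14, and these 5 were called under all 10. miR-19b-3p, miR-125b-5p, miR-221-3p and miR-3090-5p were called under 9, miR-762 under 6 and miR-3102-5p under 5. With plain background subtraction and arrays scaled to the spike controls, the median of the 323 probes stood at 0.15, with 53 probes higher (10.1%) and 16 lower (3.05%). In the authors' processed values the median stood at 0.71, with 157 higher (30.0%) and 2 lower (0.382%). Those values carry a factor for each array, 0.914 for W4-08-PR against 0.647 for C2C12-DF, that sets the median detected probe to 25. In those values miR-206-3p, miR-133b-3p and miR-133a-3p remained the 3 highest of the called miRNAs. The lowest was miR-222-3p (-1.14) in place of miR-125b-5p (-0.89), ratios from which the shift of the median was not taken away.

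**Figure D5:**
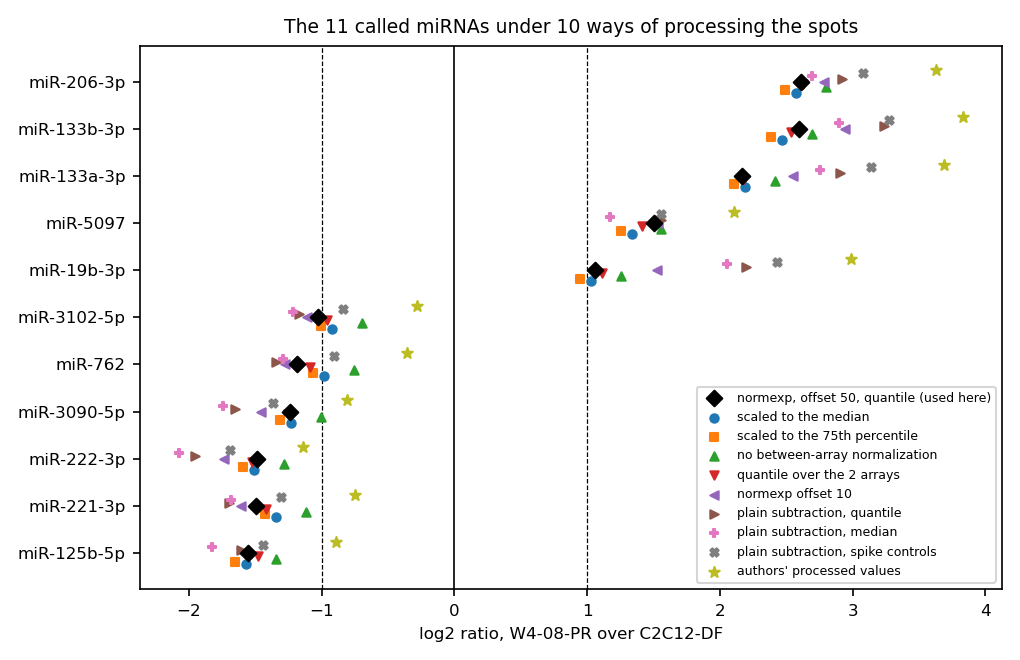
log2 ratio of W4-08-PR over C2C12-DF for the 11 called miRNAs under 10 ways of processing the same 2 arrays, with black diamonds for the values used here and dashed lines at 1 and -1. No marker crosses 0, and the authors' processed values lie to the right of the others, with miR-206-3p at 3.63 and miR-3102-5p at -0.28.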

How the data were processed

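Total RNA was measured on 1 Toray 3D-Gene array per condition, with labels and paper naming different extraction kits. The authors deposited the intensity of all 3200 spots of each array with no background subtracted, a background-subtracted intensity that is blank below detection, and normalized values, also given as a series table (largest difference 4e-06). The deposited files hold no comparison columns. Intensities were corrected with normexp (limma 3.58.1, R 4.3.3, offset 50, background from 1664 blank spots trimmed by 5% at each end), quantile-normalized over 1265 mouse miRNA probes on 3 arrays and put on the log2 scale. Other steps used Python 3.11.15, numpy 2.4.6, pandas 2.3.3 and matplotlib 3.10.9. No probe was filtered out. A probe detected on 1 array was compared with the other array's detection limit, giving a bound. The number of arrays limits the precision, and no test was run. The technical SD combines blank spots and 16 spike spots.

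Named miRNAs were the 12 highest and 12 lowest ratios, the 5 furthest bounds each way, 6 miRNAs the paper carried forward and up to 4 members of each of 26 lists. The members and lists were chosen with earlier results of these data known. miR-106a-5p, miR-106b-5p, miR-93-5p, miR-92a-3p, miR-25-3p, miR-18a-5p, miR-3473b, miR-3473e, miR-351-5p, miR-6394, the miR-486-5p probe and the miR-208a arms were added after their values were seen. Alternatives were median, 75th percentile, spike control or no scaling, quantile normalization of 2 arrays, plain subtraction, an offset of 10, the authors' values, detection on both arrays or at 3 SD, and size limits of 0.9 and 2. Clusters joined miRNA genes within 10 kb. Recovery was tested on simulated data for bright probes alone, so it does not cover dim ones.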

Additional observations from a re-analysis of the deposited data

Results flagged for a closer look

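Signals stood above the brightest blank spot in places that the comparison does not use. The brightest blank spot read 46.3 units above background on W4-08-PR, 28.1 on C2C12-DF and 37.4 on C2C12-PR. On the C2C12-PR array, 29 miRNA probes were detected that neither W4-08-PR nor C2C12-DF detected, and 2 of them passed that array's brightest blank, miR-669e-5p at 65.5 units and miR-144-3p, a red cell miRNA, at 48.3 units. Among spots named S-Probe, which the files assign to no miRNA, 6 did so on both compared arrays, and each of these is present as 1 spot. S-Probe1002 read 211 units on W4-08-PR and 147 on C2C12-DF, S-Probe1007 148 and 126, and S-Probe1014 6508 and 3863. S-Probe1016 read 208 on W4-08-PR and 185 on C2C12-DF, S-Probe1018 2312 and 2144, and S-Probe1019 285 and 186. All 6 were brighter on W4-08-PR, with no background step beyond subtraction and no scaling between arrays.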

How the results depend on the processing

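The called miRNAs kept their direction under all 9 other value settings, and 9 of 11 kept their call with median scaling, 10 with the 75th percentile, 9 with no between-array normalization, 9 with plain subtraction scaled to the spike controls, 10 with quantile normalization of the 2 arrays alone, 11 with plain subtraction and quantile normalization, 11 with an offset of 10, 6 in the authors' processed values and 11 with plain subtraction scaled to the median, which was chosen after seeing the data. The counts moved more. Calls higher in W4-08-PR numbered 5 as reported, 8 with median scaling, 13 with no between-array normalization, 53 with spike scaling, 29 with plain subtraction and quantile normalization, 8 with an offset of 10, 157 in the authors' values, 3 where the size limit was 2 and 21 with plain subtraction scaled to the median. Calls lower numbered 6 as reported, 16 with spike scaling, 26 with plain subtraction and quantile normalization, 2 in the authors' values, 0 where the size limit was 2 and 49 with plain subtraction scaled to the median. The median of the 323 probes was -0.15 with median scaling, -0.23 with the 75th percentile and 0.71 in the authors' values. Of 24 lists with a median, 5 changed its sign with median scaling, 8 with the 75th percentile, 4 with no normalization, 4 with spike scaling, 6 in the authors' values and 2 with plain subtraction scaled to the median. The cause was not tested. No paired analysis was possible because each condition had 1 array and no test was run, and no replicate could be left out. Ratios of probes near 10 units above background are bounded by the blank spots, whose SD was 6.43 units on W4-08-PR and 6.83 on C2C12-DF.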
